A study of Homo sapiens with 6 samples.

Results

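Expression of 10 genes of the interleukin 1 (IL-1) and inflammatory chemokine group was examined in human lung fibroblasts after silencing of TAZ. The genes were IL1A, IL1B, IL8, CXCL1, CXCL2, CXCL3, CCL2, CCL20, CXCL12 and TNFAIP3, and they were 10 of the 23355 genes with a symbol in the deposited read count table. They were chosen from these same libraries with their values already known, so their fold changes are given as a description, without a p-value for any of them. Calls of these genes at the threshold are named and counted only to set them beside the share over all genes. HFL-1, an established line of fibroblasts from human fetal lung, was cultured on plastic in DMEM with fetal bovine serum. The cells received a negative control siRNA (siNTC) or either of 2 Stealth siRNAs against TAZ (siTAZ #1 and siTAZ #2) with Lipofectamine RNAiMAX, so all 3 groups were transfected cells. RNA taken 48 h later was sequenced on an Ion Proton, with 2 libraries per group that the series describes as biological replicates. The comparison asks which transcripts change when TAZ, a transcriptional coactivator of the Hippo pathway encoded by WWTR1, is reduced.

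IL-1α and IL-1β are cytokines that bind the receptor IL1R1 and, through MYD88 and IRAK kinases, activate the transcription factor NF-κB. In fibroblasts NF-κB is known to induce chemokines, which are small secreted proteins that attract leukocytes. IL8 and the closely related CXCL1, CXCL2 and CXCL3 attract neutrophils, CCL2 attracts monocytes, and CCL20 attracts lymphocytes and dendritic cells. CXCL12 is made by resting stromal cells and acts on CXCR4, and TNFAIP3 encodes A20, a ubiquitin-editing enzyme that restrains NF-κB and is itself an NF-κB target.

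The 6 libraries held 15648055 to 32078188 counts on genes with a symbol. WWTR1 had 2086 and 2073 counts with siNTC, 409 and 926 with siTAZ #1, and 986 and 713 with siTAZ #2. It fell by 2.26 ± 0.10 on the log2 scale with siTAZ #1 (± standard error, edgeR quasi-likelihood test, false discovery rate [FDR] 0.00062) and by 1.56 ± 0.10 with siTAZ #2 (FDR 0.00068). In siTAZ #1 replicate 2, the larger library, the genes that follow RANGAP1 on chromosome 22 and those of X and Y took 0.246% of counts, against 3.58% in replicate 1. None of the 10 genes lies there, but the genes of that stretch raised the common dispersion of the fit to 0.0807, against 0.0164 without them. In counts per library scaled to a common depth with TMM (CPM), 7 of 9 leukocyte markers were under 1 in every library and TYROBP was at 0. The summed leukocyte marker level, most of it CD68, was 75.3 to 75.7 CPM with siNTC, 70.4 to 76.4 CPM with siTAZ #1 and 40.5 to 50.2 CPM with siTAZ #2. Of 9 epithelial markers 6 were under 1 CPM in every library, and their sum was 38.6 to 41.1 CPM with siNTC, 33.7 to 42.4 CPM with siTAZ #1 and 50.4 to 54.9 CPM with siTAZ #2. Of 7 endothelial markers 4 were under 1 CPM, and their sum, most of it TEK, was 42.7 to 43.3, 47.0 to 48.3 and 27.3 to 32.7 CPM in the same order. The 10 fibroblast markers summed to 35346 to 35439 CPM with siNTC, 23908 to 24891 CPM with siTAZ #1 and 27425 to 29201 CPM with siTAZ #2. Most of that sum is COL1A1, COL1A2, COL3A1 and VIM, and single markers went both ways with each siRNA. With siTAZ #1 PDGFRA, PDGFRB and FBN1 were higher than siNTC, by 1.72, 0.39 and 0.74 on the log2 scale. The others ranged from -1.01 (COL1A2) to -0.04 (THY1). With siTAZ #2 PDGFRB, THY1, PDGFRA and COL1A1 were at 0.54, 0.50, 0.26 and 0.20, and the others ranged from -1.92 (LUM) to -0.43 (COL3A1). The part of these shifts in the results below was not tested, and in RNA from whole cultures fewer expressing cells and less RNA per cell cannot be told apart.

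NF-κB binds κB sites in the promoters of many of these genes. RefSeq promoter windows on GRCh38.p14 matched 9 of the 10 genes, and the 250 bases upstream of each start site were searched on both strands for the κB consensus. The consensus was found in 5 of the 9 windows, against 5.05% of 27305 promoters. These 5 are printed because their windows share this sequence. Each line gives the 120 bases that end at the start site, 5′ to 3′ on the strand of the gene, with the matched bases in capitals.
CXCL1: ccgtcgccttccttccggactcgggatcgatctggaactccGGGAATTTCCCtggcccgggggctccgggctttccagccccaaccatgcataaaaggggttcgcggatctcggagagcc
CXCL2: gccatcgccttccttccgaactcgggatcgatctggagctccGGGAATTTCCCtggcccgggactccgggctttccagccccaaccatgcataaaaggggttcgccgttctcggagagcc
CXCL3: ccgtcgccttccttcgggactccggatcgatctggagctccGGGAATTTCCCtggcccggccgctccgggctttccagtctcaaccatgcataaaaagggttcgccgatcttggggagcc
CCL20: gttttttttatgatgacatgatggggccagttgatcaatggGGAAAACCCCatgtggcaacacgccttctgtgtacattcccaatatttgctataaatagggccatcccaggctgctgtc
TNFAIP3: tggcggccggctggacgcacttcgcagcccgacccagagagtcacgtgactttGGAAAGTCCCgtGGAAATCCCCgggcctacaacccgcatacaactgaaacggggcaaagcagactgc
The windows lie at chr4:73869273-73869392 (plus strand) for CXCL1, chr4:74099196-74099315 (minus strand) for CXCL2, chr4:74038690-74038809 (minus strand) for CXCL3, chr2:227813722-227813841 (plus strand) for CCL20 and chr6:137867139-137867258 (plus strand) for TNFAIP3. The match began 79 bases before the start site in CXCL1, CXCL3 and CCL20 and 78 bases before it in CXCL2, and TNFAIP3 had a pair of matches, 67 and 55 bases before it. In CXCL1, CXCL2 and CXCL3 a plus strand match and a minus strand match overlap, so the capitals form a single run. The printed windows of CXCL1 and CXCL2 were 95% identical, those of CXCL1 and CXCL3 90.8%, and those of CXCL2 and CXCL3 91.5%. The windows of IL1A, IL1B, IL8 and CXCL12 did not hold these letters, which says nothing about whether NF-κB acts on them. GGAATG, the core of the motif bound by the TEAD partners of TAZ, was found in the CCL20 window alone among the 9, 45 bases before the start site on the opposite strand, and in 11.9% of the 27305 promoters.

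IL1A (chr2:113531502-113542070 on GRCh37, minus strand) encodes IL-1α, which is active as a precursor and is released from damaged cells. It had 4 and 9 counts with siNTC, 84 and 145 with siTAZ #1, and 1 and 10 with siTAZ #2. Both siTAZ #1 libraries stood above the other 4, while the siNTC and siTAZ #2 libraries overlapped. In CPM the level was 0.254 and 0.568 with siNTC, 5.42 and 4.45 with siTAZ #1, and 0.0467 and 0.604 with siTAZ #2. Against siNTC, IL1A was higher by 3.56 ± 0.84 (log2 fold change ± standard error) with siTAZ #1 and at -0.42 ± 0.99 with siTAZ #2, and siTAZ #1 exceeded siTAZ #2 by 3.99 ± 0.86.

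IL1B (chr2:113587328-113594393, minus strand) encodes IL-1β, which is secreted after cleavage by caspase-1. It had 9 and 15 counts with siNTC, 173 and 318 with siTAZ #1, and 2 and 1 with siTAZ #2. The 3 groups did not overlap, and the order was siTAZ #1, siNTC, siTAZ #2. The level rose from 0.571 and 0.947 CPM to 11.2 and 9.75 CPM with siTAZ #1, a log2 fold change of 3.77 ± 0.34. With only 3 counts over both siTAZ #2 libraries, the ratio of summed counts, scaled for library size, gives a level 9.60-fold lower than siNTC, with a 95% interval of 2.92 to 49.8. By the same ratio siTAZ #1 was 129-fold above siTAZ #2 (43.9 to 628). Intervals of count ratios cover counting error only.

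IL8 (chr4:74606236-74609433, plus strand), now named CXCL8, encodes a ligand of CXCR1 and CXCR2. It had 168 and 156 counts with siNTC, 1109 and 4414 with siTAZ #1, and 222 and 172 with siTAZ #2. The siTAZ #2 libraries, both at 10.4 CPM, lay between the siNTC libraries at 10.7 and 9.84 CPM, and the siTAZ #1 libraries stood far above at 71.6 and 135 CPM. Among the 10 genes, IL8 had the widest gap between siTAZ #1 replicates in CPM. On the log2 scale IL8 was higher than siNTC by 3.34 ± 0.32 with siTAZ #1 and at 0.02 ± 0.30 with siTAZ #2. The difference between the siRNAs was 3.32 ± 0.32.

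CXCL1 (chr4:74735110-74737025, plus strand) encodes a CXCR2 ligand. It had 222 and 231 counts with siNTC, 790 and 1956 with siTAZ #1, and 64 and 62 with siTAZ #2. The groups did not overlap and stood on opposite sides of the control, at 14.1 and 14.6 CPM with siNTC, 51.0 and 60.0 CPM with siTAZ #1, and 2.99 and 3.74 CPM with siTAZ #2. These are log2 fold changes of 1.95 ± 0.17 for siTAZ #1 and -2.09 ± 0.18 for siTAZ #2, and the siRNAs differed by 4.04 ± 0.19.

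CXCL2 (chr4:74962757-74964913, minus strand), another CXCR2 ligand, had 59 and 51 counts with siNTC, 94 and 320 with siTAZ #1, and 12 and 16 with siTAZ #2. The order of the groups was that of CXCL1, again without overlap. Relative to siNTC, CXCL2 stood at 1.20 ± 0.36 (log2) with siTAZ #1, where replicate 1 was at 6.06 CPM and replicate 2 at 9.81 CPM, and -2.20 ± 0.41 with siTAZ #2. The siRNAs differed by 3.39 ± 0.41.

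CXCL3 (chr4:74902306-74904524, minus strand), the third of these paralogs, had 110 and 56 counts with siNTC, 71 and 224 with siTAZ #1, and 4 and 50 with siTAZ #2. The siNTC and siTAZ #1 libraries overlapped, at 6.97 and 3.53 CPM against 4.58 and 6.87 CPM, and the siTAZ #2 replicates were unlike each other, at 0.187 and 3.02 CPM. Log2 fold changes came to 0.13 ± 0.94 with siTAZ #1 and -1.75 ± 1.01 with siTAZ #2. Without siTAZ #2 replicate 2 the latter was -4.79, so a single library sets this value.

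The values of CXCL1, CXCL2 and CXCL3 carry a further uncertainty. Their coding sequences were 92.5% to 94.4% identical, and 0.533% to 5.63% of the 50-base windows of one transcript occur unchanged in another. How reads that fit several genes were treated is not given in the sources used here, so counts may have been split or lost among the 3 genes. IL8 shared no such window with them.

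CCL2 (chr17:32582293-32584227, plus strand) encodes the CCR2 ligand MCP-1. It had 376 and 355 counts with siNTC, 956 and 1643 with siTAZ #1, and 940 and 737 with siTAZ #2. All 4 siTAZ libraries, at 43.9 to 61.7 CPM, were above both siNTC libraries, at 23.8 and 22.4 CPM. CCL2 was the only one of the 10 genes with this pattern, which 18.6% of the 14053 genes tested showed. In log2 terms CCL2 exceeded siNTC by 1.28 ± 0.14 with siTAZ #1 and by 0.94 ± 0.14 with siTAZ #2, and the siRNAs differed by 0.34 ± 0.14.

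CCL20 (chr2:228670455-228682280, plus strand) encodes the ligand of CCR6. It had 0 and 0 counts with siNTC, 19 and 27 with siTAZ #1, and 0 and 1 with siTAZ #2. Counts were thus almost limited to siTAZ #1. With the 0 counts over both siNTC libraries set to 3, CCL20 was 10.1-fold higher with siTAZ #1. That value leaves out the counting error of siTAZ #1 and is not a lower bound. The exact binomial interval of the ratio to siNTC began at 7.87 and had no upper end. The ratio of siTAZ #1 to siTAZ #2 was 36.3, with an interval of 6.20 to 1464 that reflects the single count with siTAZ #2. No fold is given for siTAZ #2 against siNTC.

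CXCL12 (chr10:44865613-44881941, minus strand), the homeostatic chemokine, had 1963 and 2263 counts with siNTC, 812 and 1779 with siTAZ #1, and 750 and 357 with siTAZ #2. No siTAZ library reached the lower siNTC library, a pattern that 17.5% of the genes tested showed and none of the other 9 genes did. The level was 124 and 143 CPM with siNTC, 52.4 and 54.6 CPM with siTAZ #1, and 35.1 and 21.6 CPM with siTAZ #2. CXCL12 had a log2 fold change of -1.32 ± 0.23 for siTAZ #1 and -2.24 ± 0.24 with siTAZ #2. The level was higher with siTAZ #1 than with siTAZ #2 by 0.92 ± 0.23.

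TNFAIP3 (chr6:138188351-138204451, plus strand) had 471 and 373 counts with siNTC, 710 and 1417 with siTAZ #1, and 310 and 215 with siTAZ #2. As for IL1B, CXCL1 and CXCL2, the control lay between the groups, with 29.9 and 23.5 CPM against 45.8 and 43.5 CPM with siTAZ #1 and 14.5 and 13.0 CPM with siTAZ #2. Log2 fold changes were 0.74 ± 0.16 for siTAZ #1 and -0.96 ± 0.16 for siTAZ #2. The siRNAs differed by 1.70 ± 0.16.

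**Figure D1:**
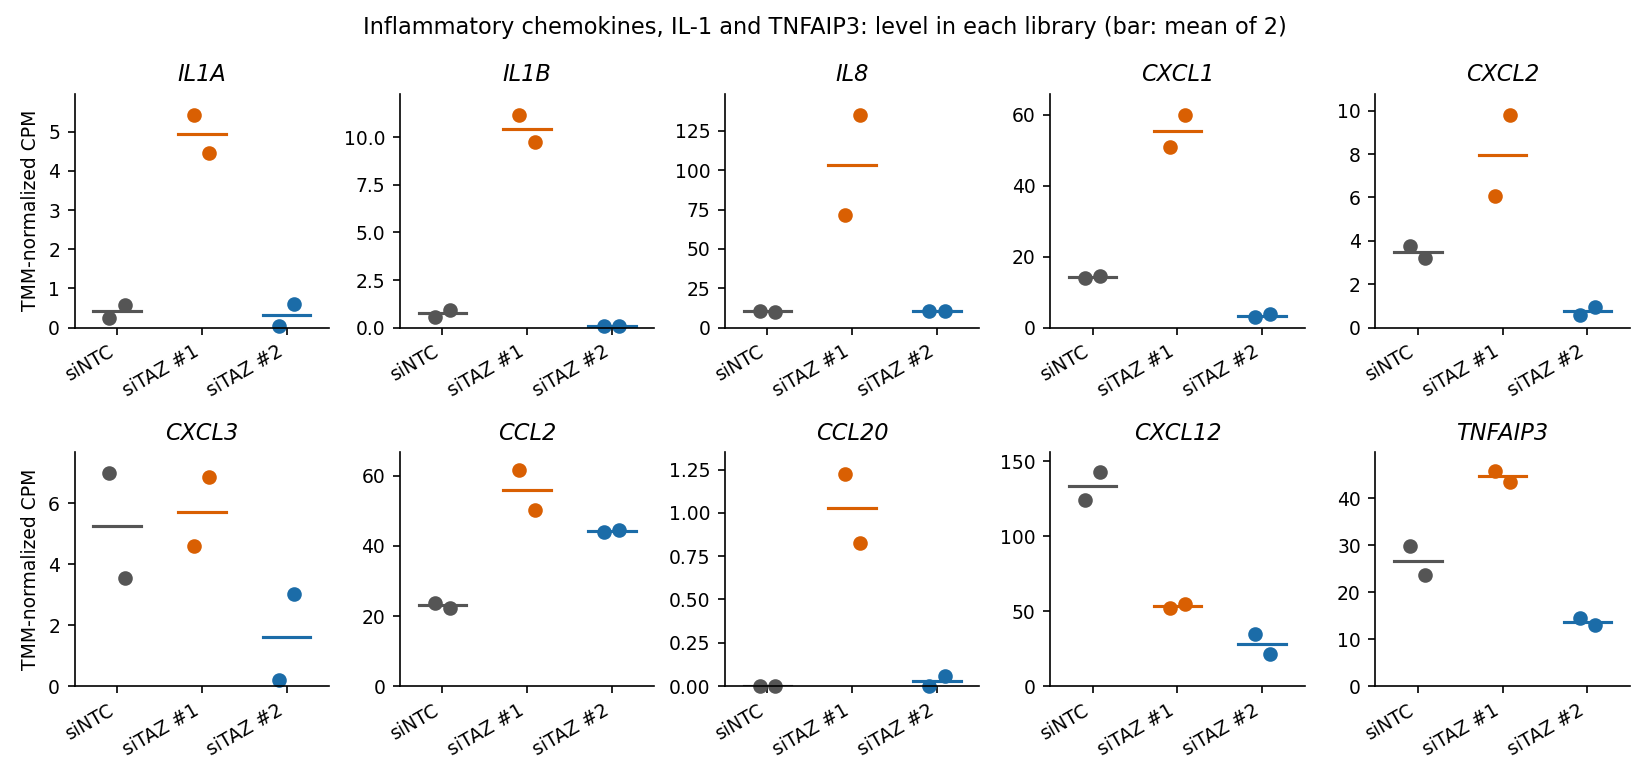
Level of each of the 10 genes in the 6 libraries. The y axis is TMM-normalized CPM on a linear scale from 0, with its own range in each panel, the x axis the 3 siRNA groups, each point a library and each bar the mean of 2 libraries. IL1A, IL1B, IL8 and CCL20 stand out with siTAZ #1, CXCL12 is lower and CCL2 higher in all 4 siTAZ libraries, and siNTC lies between the siRNAs for IL1B, CXCL1, CXCL2 and TNFAIP3.

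All 10 genes passed the filter on low counts, but IL1A and CCL20 had both libraries of a group over the filter's 0.612 CPM only with siTAZ #1, and so did IL1B. For these 3 genes, passing the filter itself required a high level with siTAZ #1. With siTAZ #1 against siNTC, 7 of the 10 genes were higher at FDR under 0.05 in the edgeR quasi-likelihood test (IL1A, IL1B, IL8, CXCL1, CCL2, CCL20 and TNFAIP3) and 1 was lower (CXCL12), while CXCL2 and CXCL3 did not pass. Of all genes tested, 10.8% were higher and 9.78% lower. The median log2 fold change was 1.61 over the 10 genes and 0.02 over all genes. With siTAZ #2 against the same siNTC libraries, 5 were lower (IL1B, CXCL1, CXCL2, CXCL12 and TNFAIP3) and 1 was higher (CCL2), against 14.4% lower and 14.1% higher of all genes. The medians were -1.35 and 0.01. Both medians over the 10 genes include IL1A, IL1B and CCL20, and the CCL20 values in them rest on 0 counts with siNTC.

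Because the genes were picked on these libraries, these counts are not evidence that the group responds. The same holds for the direct comparison of the siRNAs, in which 8 of the 10 genes were higher with siTAZ #1 than with siTAZ #2 and CXCL3 and CCL2 did not pass. Over all genes 15.2% were higher and 13.4% lower with siTAZ #1, and the medians were 3.36 over the 10 genes and -0.01 over all. IL1B, CXCL1 and TNFAIP3 were higher with siTAZ #1 and lower with siTAZ #2, each at FDR under 0.05, as were 116 of all genes (0.825%). TNFAIP3 with siTAZ #1 did not pass in 5 of 14 alternative settings, edgeR's exact test among them. With siTAZ #1 the call was also lost for CCL20 (5 of 12 settings), IL1A (3 of 13), CXCL12 (2 of 14) and CCL2 (1 of 14). With siTAZ #2 it was lost for CXCL2 (3 of 14), TNFAIP3 (2 of 14) and CCL2 (2 of 14). In the direct comparison CXCL12 lost it in 5 of 14 and CCL20 in 3 of 13. CXCL12 and CCL2 were the genes that passed in the same direction with both siRNAs. Some calls against siNTC depended on having both control libraries. With siTAZ #1, IL1B, IL8 and CXCL1 kept the call in every alternative setting that tested them. So did IL1B, CXCL1 and CXCL12 with siTAZ #2. With the near-missing genes left out of the fit, 8 in place of 7 genes were higher with siTAZ #1. Without siNTC replicate 1 or 2, the higher genes with siTAZ #1 numbered 4 or 3 and the lower genes with siTAZ #2 numbered 3 or 4. CCL2 with siTAZ #2 and CXCL12 with siTAZ #1 no longer passed without either siNTC library.

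**Figure D2:**
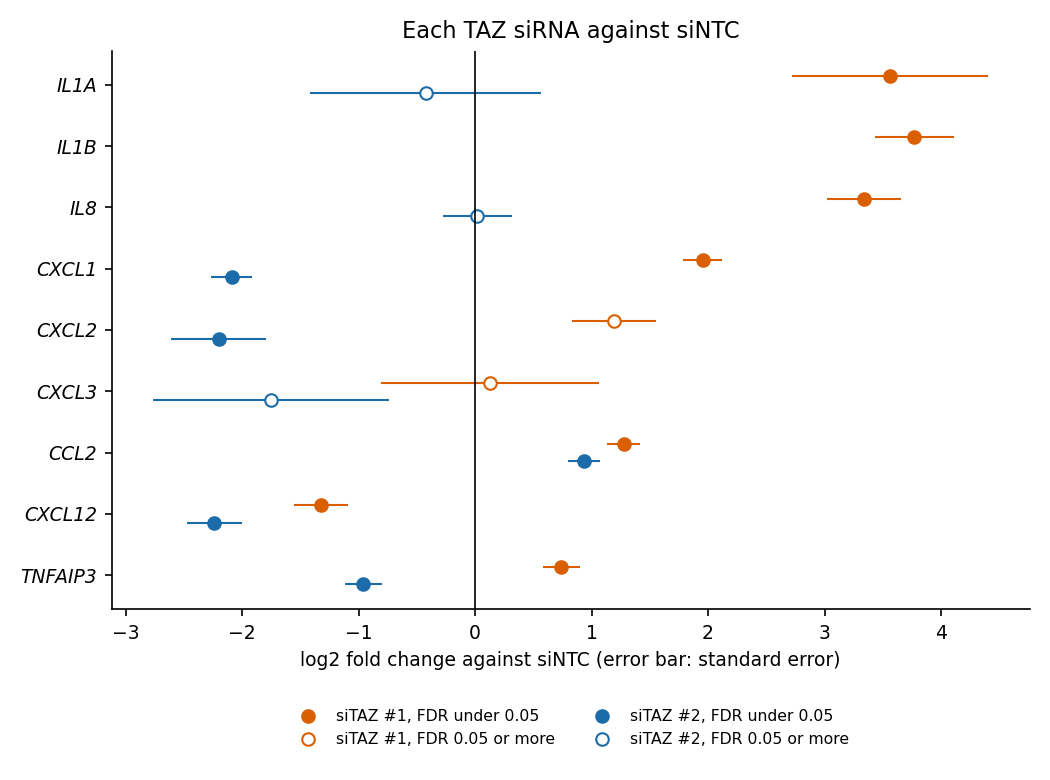
Log2 fold change of 9 of the genes with siTAZ #1 and with siTAZ #2 against the same 2 siNTC libraries, with the standard error as bar and filled points for FDR under 0.05. CCL20 and the siTAZ #2 value of IL1B are not plotted, since they rest on 0 to 3 counts in a group. CXCL1 lies at 1.95 and -2.09, CXCL12 at -1.32 and -2.24, and CCL2 at 1.28 and 0.94.

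The order of the genes by level changed between groups. Per kilobase of the Ensembl canonical transcript, CXCL12 led with siNTC at 69.3 ± 6.74 CPM (SD, n = 2), ahead of CCL2 at 31.2 ± 1.37 and CXCL1 at 12.2 ± 0.304. IL8 at 6.24, TNFAIP3 at 5.72, CXCL3 at 4.89 and CXCL2 at 3.12 CPM per kilobase followed. Neighbours in this run from IL8 to CXCL2 overlapped. IL1B at 0.503, IL1A at 0.204 and CCL20 at 0 were the lowest. With siTAZ #1 the leading genes were CCL2 at 75.6 ± 10.8, IL8 at 63.0 ± 27.5 and CXCL1 at 47.3 ± 5.43 CPM per kilobase, where neighbours overlapped, and CXCL12 came next at 27.7 ± 0.798. The order below was TNFAIP3 at 9.57, CXCL2 at 7.12, IL1B at 6.94, CXCL3 at 5.33, IL1A at 2.45 and CCL20 at 1.23, where CXCL2 overlapped with IL1B and with CXCL3. With siTAZ #2 CCL2 led at 59.7 ± 0.549, followed by CXCL12 at 14.7 ± 4.95 and IL8 at 6.32 ± 0.00496 CPM per kilobase. TNFAIP3 at 2.94, CXCL1 at 2.87, CXCL3 at 1.49 and CXCL2 at 0.685 overlapped in turn. IL1A at 0.161, IL1B at 0.0511 and CCL20 at 0.0362 were the lowest and overlapped as well.

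Across the 6 libraries, which include the differences between the 3 groups, Pearson's r of log2 CPM was 0.980 between CXCL1 and IL1B, 0.978 between CXCL1 and CXCL2 and 0.978 between CXCL1 and TNFAIP3. It was -0.751 between CCL2 and CXCL12. These are descriptions over 6 libraries that share the same group structure. Of all genes tested, those most like IL8 were ATP2B1 (r = 0.9975), HS3ST3A1 (0.9970) and HMGA1 (0.9965). The genes most like CCL2 were ABHD15 (0.9975), LCORL (0.9973) and SNPH (0.9952), and those most like CXCL12 were ADCY7 (0.9976), PSAT1 (0.9964) and CTNNAL1 (0.9962).

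Among the receptors of these ligands, IL1R1, the signaling receptor of both forms of IL-1, moved in opposite directions with the siRNAs. It had 1905 and 2029 counts with siNTC, 8017 and 17502 with siTAZ #1, and 504 and 442 with siTAZ #2. In CPM this was 121 and 128, 517 and 537, and 23.6 and 26.7, with no overlap between groups. IL1R1 was higher by 2.08 ± 0.09 on the log2 scale with siTAZ #1 (edgeR, FDR 0.00062) and lower with siTAZ #2, at -2.31 ± 0.10 (FDR 0.00037), and the siRNAs differed by 4.39 ± 0.10 (FDR 0.00013). IL1RAP, the accessory chain of the receptor, had 143 and 146 counts with siNTC, 217 and 355 with siTAZ #1, and 808 and 458 with siTAZ #2. It rose by 1.84 ± 0.22 with siTAZ #2 (FDR 0.0033), opposite to IL1R1, and was at 0.44 ± 0.22 with siTAZ #1 (FDR 0.21). The order of the groups thus differed between the chains. IL18R1, a receptor chain for the related cytokine IL-18, had 16 and 11 counts with siNTC, 116 and 293 with siTAZ #1, and 14 and 15 with siTAZ #2, and rose by 3.26 ± 0.34 with siTAZ #1 (FDR 0.0033). SIGIRR, an inhibitory receptor of the family, fell by 1.09 ± 0.28 on the log2 scale with siTAZ #1 (FDR 0.044), a call lost in 6 of 14 alternative settings (FDR up to 0.204).

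The receptor antagonist and the decoy receptor of IL-1 had too few counts to test. IL1RN had 0 to 15 counts and IL1R2 had 0 to 10 counts per library. CXCR4, the CXCL12 receptor, had 1 to 5 counts per library, and CXCR7, which scavenges CXCL12, had 8 and 1 counts with siNTC, 21 and 50 with siTAZ #1, and 18 and 15 with siTAZ #2 without passing the test in any comparison. Of 18 IL-1 family ligands and receptors other than IL1A and IL1B in the table, 7 were tested. With siTAZ #1, 2 of them were higher and 1 lower (all genes 10.8% and 9.78%), and with siTAZ #2 1 was higher and 1 lower (all genes 14.1% and 14.4%).

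Of 12 signaling genes downstream of IL1R1, all tested, 1 was higher and 1 lower with siTAZ #1 (all genes 10.8% and 9.78%), and 1 was higher and 2 lower with siTAZ #2 (all genes 14.1% and 14.4%), which is about the share over all genes. IRAK4, the kinase next to MYD88, was lower with both siRNAs, at -0.51 ± 0.13 with siTAZ #1 (edgeR, FDR 0.042) and -0.45 ± 0.13 with siTAZ #2 (FDR 0.048), but the call was lost in 9 and 7 of 14 alternative settings (FDR up to 0.546 and 0.201). CASP1, which cleaves IL-1β, rose by 0.74 ± 0.11 with siTAZ #1 (FDR 0.0091), a call lost in 3 of 14 settings (FDR up to 0.308). IRAK3, an inhibitory kinase-like protein, fell by 1.14 ± 0.20 on the log2 scale with siTAZ #2 (FDR 0.0096, lost in 2 of 14 settings, up to 0.0643). MYD88, the adaptor, was at 0.39 ± 0.11 with siTAZ #2 (FDR 0.04, lost in 6 of 14, up to 0.201). IRAK1, with 2506 and 56 counts with siTAZ #1, and TAB3 and IKBKG are X-linked and lie in the stretch whose counts are nearly missing in siTAZ #1 replicate 2. Their values with siTAZ #1 therefore cannot be read. The joint fit shares its spread over the groups, so their standard errors with siTAZ #2 were also wide, at 1.47, 1.36 and 1.47. IRAK1 did not pass there, at 189 and 180 CPM with siNTC and 270 and 275 CPM with siTAZ #2. Failing the test with siTAZ #2 thus says little about them, and IRAK1 and TAB3 are among the 12 above. IRAK1, TAB3 and IKBKG were the 3 of 71 tested genes of the 7 pathway lists found in that stretch.

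Among NF-κB subunits and their kinases, all 11 were tested, and every gene that passed against siNTC is named here. IKBKG is among the 11, and its tests carry the limit given above. Over all genes, 10.8% were higher and 9.78% lower with siTAZ #1, and 14.1% and 14.4% with siTAZ #2. The calls in this list came to about that share. IKBKB, a kinase of the inhibitor IκB, was higher with siTAZ #1 by 0.89 ± 0.20 (edgeR, FDR 0.031, lost in 4 of 14 settings, up to 0.177). With siTAZ #2, NFKB1 was lower, at -0.37 ± 0.09 (FDR 0.034), and RELB and MAP3K14 of the noncanonical branch were higher, at 1.01 ± 0.24 (FDR 0.028) and 0.67 ± 0.18 (FDR 0.039). These calls were lost in 7 (NFKB1), 3 (RELB) and 6 (MAP3K14) of 14 settings, with FDR up to 0.153, 0.166 and 0.192, and none of the 3 passed without siNTC replicate 1, siNTC replicate 2 or siTAZ #2 replicate 2. RELA, the main activating subunit, was at 77.2 to 94.2 CPM in all 6 libraries.

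Of 14 inhibitors and feedback genes of NF-κB other than TNFAIP3, 3 were higher with siTAZ #1 (all genes 10.8%), and 3 were higher and 2 lower with siTAZ #2 (all genes 14.1% and 14.4%). TNIP1, which binds A20, had 1421 and 1485 counts with siNTC, 1816 and 3829 with siTAZ #1, and 516 and 520 with siTAZ #2. It fell by 1.73 ± 0.14 on the log2 scale with siTAZ #2 (edgeR, FDR 0.0011) and was at 0.35 ± 0.14 with siTAZ #1 (FDR 0.13). NFKBIZ, an atypical IκB induced by IL-1, had the same order of groups, with 36.5 and 38.7 CPM with siNTC, 62.8 and 48.1 CPM with siTAZ #1, and 13.6 and 13.0 CPM with siTAZ #2. It fell by 1.49 ± 0.16 with siTAZ #2 (FDR 0.0024) and was at 0.56 ± 0.16 with siTAZ #1 (FDR 0.058). NFKBIA, which encodes IκBα, rose by 0.63 ± 0.11 with siTAZ #1 (FDR 0.012, lost in 3 of 14 settings, up to 0.320) and was at -0.05 ± 0.11 with siTAZ #2 (FDR 0.77). CYLD, a deubiquitinase that restrains NF-κB, went the other way, at 54.3 and 51.9 CPM with siNTC, 47.3 and 47.5 CPM with siTAZ #1, and 92.1 and 94.1 CPM with siTAZ #2, and rose by 0.81 ± 0.09 with siTAZ #2 (FDR 0.0028). With siTAZ #1 CYLD was at -0.16 ± 0.09 and did not pass (FDR 0.26). NFKBIE, which encodes IκBε, was higher with both siRNAs, by 0.52 ± 0.14 with siTAZ #1 (FDR 0.046, lost in 8 of 14 settings, up to 0.616) and 0.74 ± 0.14 with siTAZ #2 (FDR 0.012, lost in 4 of 14, up to 0.0889). RNF11, a partner of A20, rose with both siRNAs, by 1.14 ± 0.10 with each (FDR 0.0019 and 0.0013).

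**Figure D3:**
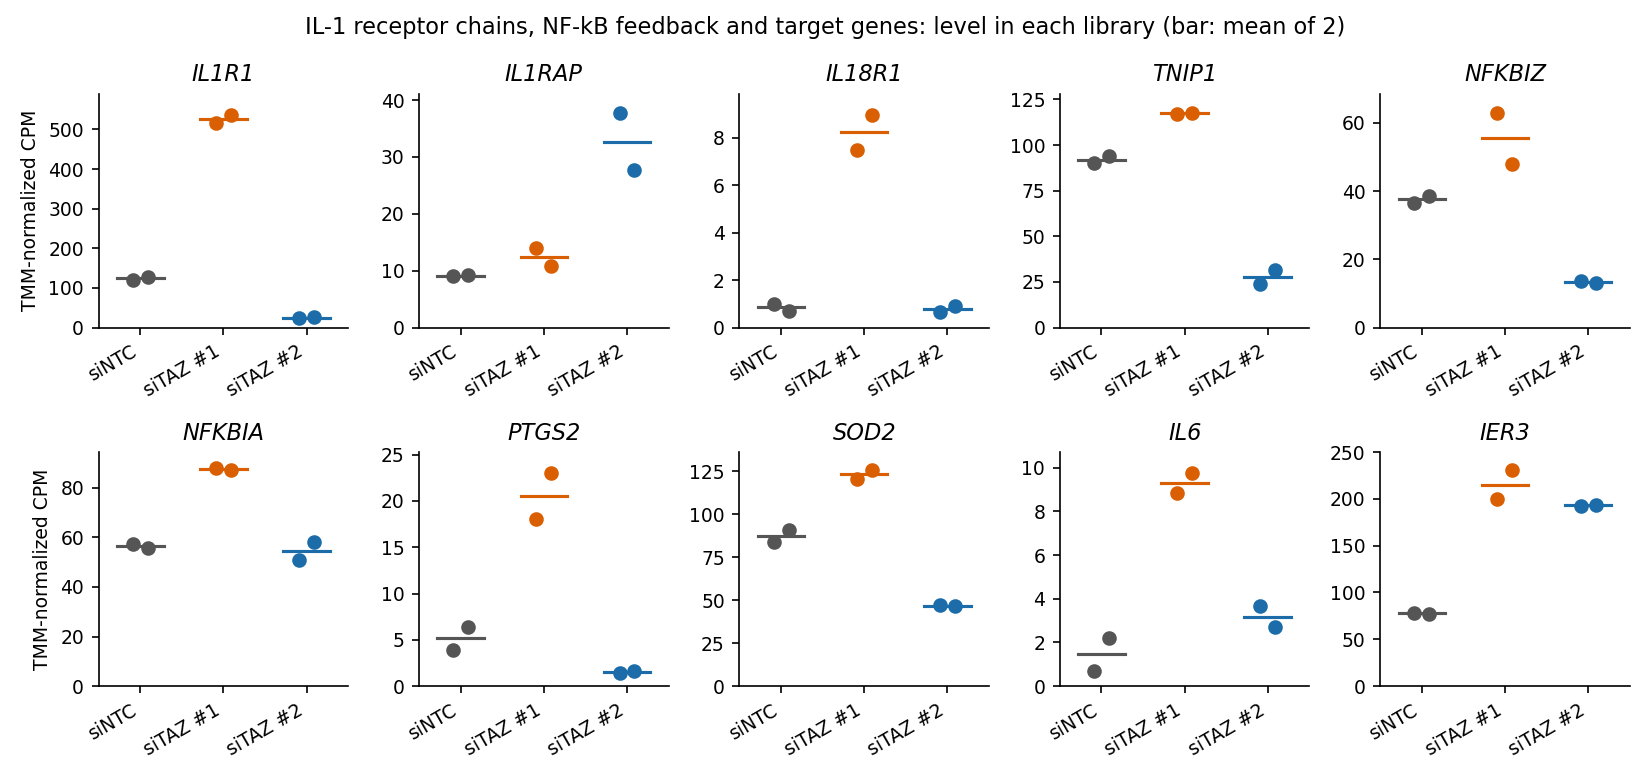
Level of 3 IL-1 receptor family chains, 3 feedback genes and 4 target genes of NF-κB in the 6 libraries. The y axis is TMM-normalized CPM from 0 with its own range in each panel, each point is a library and each bar the mean of 2. IL1R1, PTGS2 and SOD2 are above siNTC with siTAZ #1 and below it with siTAZ #2, while IL1RAP is highest with siTAZ #2.

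Of 37 other chemokines in the table, 6 passed the filter on low counts, and 3 of these were higher with siTAZ #1 (all genes 10.8%) and 2 with siTAZ #2 (all genes 14.1%). CXCL5, another CXCR2 ligand, had 31 and 45 counts with siNTC, 146 and 481 with siTAZ #1, and 136 and 78 with siTAZ #2, and rose by 2.33 ± 0.35 with siTAZ #1 (edgeR, FDR 0.0086) and 1.20 ± 0.34 with siTAZ #2 (FDR 0.047). The calls were lost in 2 and 6 of 14 settings (FDR up to 0.0788 and 0.219). Unlike CXCL1 and CXCL2, it was higher in all 4 siTAZ libraries. CXCL10, an attractant of T cells, had 3 and 5 counts with siNTC, 32 and 66 with siTAZ #1, and 3 and 2 with siTAZ #2, and its log2 value was 2.98 ± 0.52 with siTAZ #1 (FDR 0.014). That call was lost in 2 of 13 settings. CCL7, a neighbour of CCL2, had 1 and 0 counts with siNTC, 39 and 33 with siTAZ #1, and 4 and 4 with siTAZ #2. Its ratio of siTAZ #1 to siNTC was 47.3 with a counting interval of 8.23 to 1895. CXCL10 and CCL7 passed the filter only through siTAZ #1, so a high level there was needed for them to be tested at all. CX3CL1, the membrane-bound fractalkine, rose instead with siTAZ #2, by 2.04 ± 0.46 (FDR 0.024, lost in 3 of 14 settings, up to 0.115), from 14 and 36 counts to 125 and 119.

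Of 22 other widely known NF-κB targets, a list drawn up with earlier results of these data known, 19 were tested. With siTAZ #1, 13 were higher, against 10.8% of all genes, and the median log2 fold change was 1.06, against 0.02 over all genes. That median includes CSF2 (2.47) and CSF3 (4.04), neither of which passed the threshold. Both had both libraries of a group over the cutoff of the low-count filter only with siTAZ #1. A high level there was thus needed for them to be tested. The 13 were BIRC2, ICAM1, VCAM1, IL6, LIF, PTGS2, SOD2, IER3, IRF1, CD83, MMP3, MMP1 and PLAU. They include adhesion molecules (ICAM1, VCAM1), cytokines (IL6, LIF) and proteases (MMP1, MMP3, PLAU), and the other 6 did not pass. With siTAZ #2, 6 were higher and 4 lower (all genes 14.1% and 14.4%), and the median was 0.40, against 0.01. BIRC3, VCAM1, PTGS2 and SOD2 were lower, while ICAM1, LIF, IER3, IRF1, MMP3 and PLAU were higher. The count was also 13 without siTAZ #1 replicate 2, and 5 or 7 without siNTC replicate 1 or 2.

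PTGS2, which encodes cyclooxygenase-2, had 61 and 102 counts with siNTC, 279 and 750 with siTAZ #1, and 30 and 27 with siTAZ #2. PTGS2 changed by 1.99 ± 0.30 (log2) with siTAZ #1 (edgeR, FDR 0.0092) and by -1.76 ± 0.32 with siTAZ #2 (FDR 0.012). SOD2, the mitochondrial superoxide dismutase, showed the same order of groups in a narrower range, at 0.50 ± 0.09 (FDR 0.014) and -0.90 ± 0.09 (FDR 0.0018). PTGS2 and SOD2 with siTAZ #1 lost the call in 1 and 3 of 14 settings (FDR up to 0.0609 and 0.432), and PTGS2 with siTAZ #2 in 3 (up to 0.0781). IL6 had 11 and 35 counts with siNTC, 137 and 318 with siTAZ #1, and 78 and 45 with siTAZ #2. It rose by 2.67 ± 0.51 with siTAZ #1 (FDR 0.018, lost in 1 of 14 settings at 0.0552) and was at 1.13 ± 0.51 with siTAZ #2 (FDR 0.15). The collagenase MMP1 rose by 1.64 ± 0.10 with siTAZ #1 (FDR 0.00087) and was at -0.19 ± 0.10 with siTAZ #2 (FDR 0.22). IER3, an immediate early gene, and the stromelysin MMP3 rose with both siRNAs, by 1.47 ± 0.09 and 2.03 ± 0.12 with siTAZ #1 (FDR 0.0009 and 0.0008) and by 1.31 ± 0.09 and 0.77 ± 0.11 with siTAZ #2 (FDR 0.00081 and 0.0058, the latter lost in 2 of 14 settings, up to 0.0581).

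**Figure D4:**
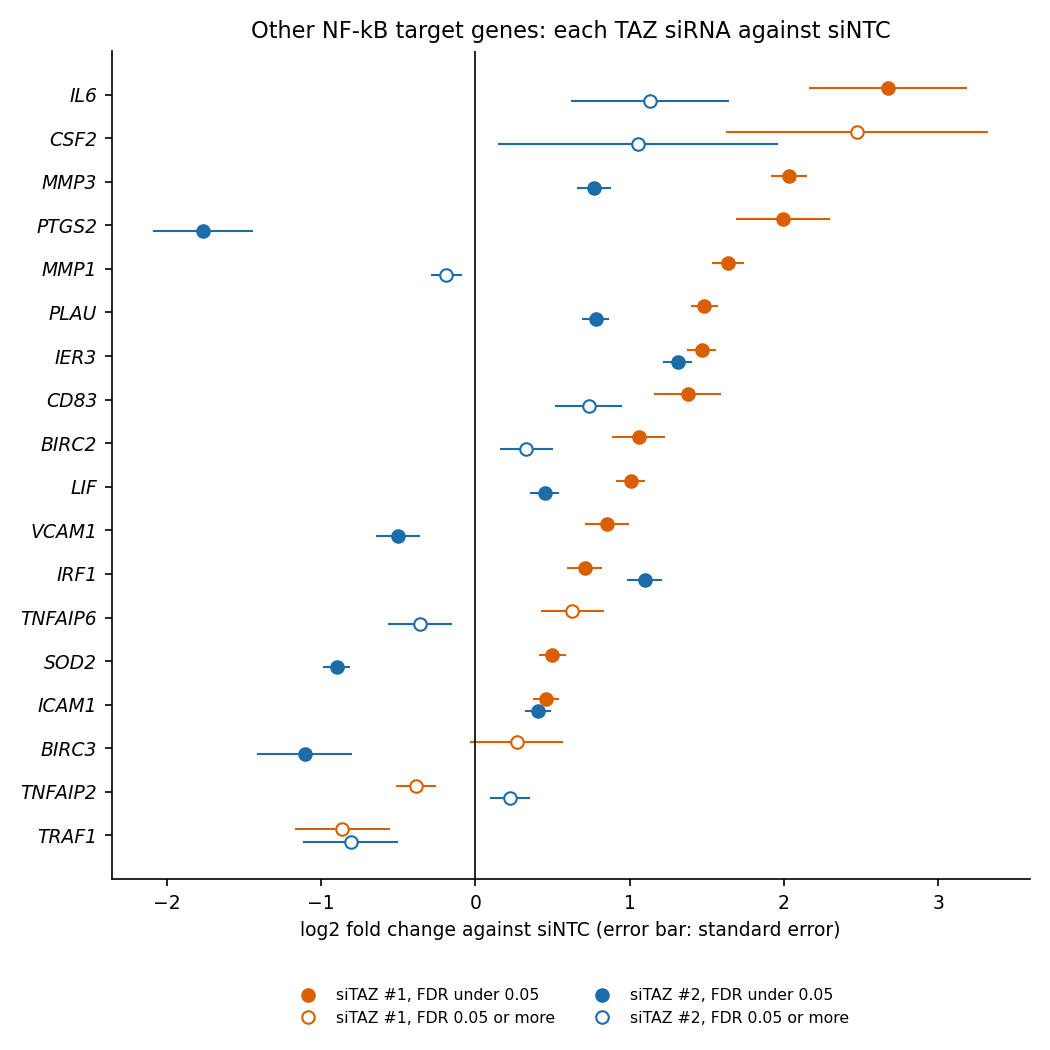
Log2 fold change of 18 tested NF-κB target genes outside the 10, with siTAZ #1 and siTAZ #2 against the same siNTC libraries, sorted by the siTAZ #1 value, with the standard error as bar and filled points for FDR under 0.05. CSF3 was tested but is not plotted, because the siNTC libraries together held 3 counts. PTGS2 lies at 1.99 and -1.76, IER3 at 1.47 and 1.31.

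With 2 libraries per group, the p-values measure only the spread between these libraries, borrowed across genes, and an exact permutation of 2 against 2 libraries cannot give a two-sided p under 0.333. Both comparisons with siNTC use the same 2 control libraries, so their values are given side by side and not as separate evidence.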

How the data were processed

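RNA of HFL-1 cells was sequenced in 6 libraries, 2 each of siNTC, siTAZ #1 and siTAZ #2, grouped by the sample labels. The authors deposited unnormalized counts of reads, listed by gene symbol. They had mapped the Ion Proton reads with TMAP (build hg19) and counted with HTSeq (0.6.1 in the submitters' processing notes). Strand setting and counting mode are not given in the sources used here. Of 23368 rows, 13 named a calendar date instead of a gene (0.0458% to 0.0506% of counts) and were left out.

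R 4.3.3 was used. Low counts were removed with filterByExpr (minimum count 10, by group), TMM factors were applied, and the quasi-likelihood test of edgeR 4.0.16 was run in 1 fit of 6 libraries. P-values were adjusted by Benjamini-Hochberg over all 14053 tested genes, and the FDR threshold was 0.05. Standard errors were derived from the fold change and its F statistic. Count ratios have exact binomial intervals (level 0.95), and the floor for 0 counts is 3 over a group. Log2 CPM for correlations used a prior count of 2. Alternatives were DESeq2 1.42.0, edgeR's exact test, RLE or library-total scaling, no filter, a mean count of at least 50, a replicate block, leaving out each library, and a fit without the stretch from RANGAP1 through Y.

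The 10 genes and the lists were chosen with earlier results of these data known. Other genes were named by rule: WWTR1, receptors and the antagonist of the ligands, up to 4 genes per list and comparison with the largest fold change at FDR under 0.05, and the 3 genes most like IL8, CCL2 and CXCL12. RELA, IRAK1, TAB3, IKBKG, CSF2, CSF3 and single fibroblast markers were named after their values were seen, and genes given without values are those a count covers. Positions are from GENCODE on GRCh37, found for 21477 symbols (1921 through a synonym), and promoter sequences from RefSeq on GRCh38.p14. CCL2 had no entry there.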

Additional observations from a re-analysis of the deposited data

Results flagged for a closer look

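For 6 of the genes named by rule the effects of the siRNAs against siNTC passed the threshold in opposite directions and the direct test of siTAZ #1 against siTAZ #2 passed as well. The difference, siTAZ #1 minus siTAZ #2 on the log2 scale, was 6.94 for IL1B, 4.04 for CXCL1 and 1.70 for TNFAIP3, which belong to the genes chosen on these libraries. The value of IL1B rests on 3 counts over the siTAZ #2 libraries. TNFAIP3 with siTAZ #1 did not pass in the edgeR exact test. It was 4.39 for IL1R1, 3.76 for PTGS2 and 1.40 for SOD2, which come from the lists of receptors and NF-κB targets. SOD2 with siTAZ #1 did not pass in that test either. In each case both siTAZ #1 libraries were above, and both siTAZ #2 libraries below, the 2 siNTC libraries, and 0.825% of all genes tested were called in these directions. VCAM1, an adhesion molecule, and FBN1, a fibroblast marker, are outside the naming rule and were picked out after their values were seen. Both also met this description, with differences of 1.35 for VCAM1 and 1.64 for FBN1.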

How the results depend on the processing

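Of 398 values of the 10 genes under the alternatives, 348 kept their direction and side of the threshold, 31 lost and 11 gained a call, and 8 changed sign. Leaving out 1 library gave 0 to 1 lower and 3 to 8 higher of the 10 genes with siTAZ #1, 3 to 6 lower and 0 to 1 higher with siTAZ #2, and 7 to 9 higher with siTAZ #1 than with siTAZ #2. Where a group kept a single library, its spread was taken from the other groups. Deviations of same-numbered replicates correlated at -0.000692, 0.0109 and -0.0769. The near-missing genes of siTAZ #1 replicate 2 enter the values that involve siTAZ #1. The sample labels do not say whether libraries of the same number were prepared together, and these values cannot decide it. With a replicate block 5 of the 10 genes were higher with siTAZ #1, 5 were lower with siTAZ #2 and 6 were higher in the direct comparison. TNFAIP3 with siTAZ #1 did not pass in the edgeR exact test, and CXCL2 with siTAZ #1 passed in DESeq2. The pathway lists held 71 genes tested in the main fit. Over all genes in that fit, 10.8% were higher and 9.78% lower with siTAZ #1, and 14.1% and 14.4% with siTAZ #2. In the direct comparison 15.2% were higher and 13.4% lower. The shares over all genes under the alternatives are not given here. Genes of the pathway lists lower with siTAZ #1 numbered 2, but 4 in DESeq2, 0 in the exact test and with the block, 1 with library totals or no filter, 5 without the near-missing genes and 0 to 7 without 1 library. With siTAZ #1, 23 were higher, and 8 to 29 without 1 library. With siTAZ #2, 10 were lower, but 6 with library totals or the block and 4 to 12 without 1 library, and 15 were higher, with a range of 6 to 22. In the direct comparison 9 were lower (4 in the exact test, 2 to 13 without 1 library) and 24 higher (13 in the exact test, 13 to 28 without 1 library). Signs changed only for values that had not passed the test. With siTAZ #2, leaving out 1 library gave -3.00 to 0.55 for IL1A, -0.055 to 0.058 for IL8, -0.41 to 0.14 for IL18R1, -0.17 to 0.043 for NFKBIA and -0.19 to 0.39 for IKBKB, and IL8 was at -0.0037 without a filter. With siTAZ #1 the range was -0.29 to 0.69 for CXCL3, -0.14 to 0.064 for MYD88 and -0.29 to 0.0092 for MAP3K14, and CXCL3 was at -0.059 with the block. In the direct comparison it was -0.15 to 0.043 for IRAK4, -0.50 to 0.086 for RELB and -0.11 to 0.12 for RNF11, which was at -0.0070 with library totals, -0.0040 at a mean count of 50 and -0.014 without the near-missing genes. The causes were not tested. Another scaling moved the median of all genes by 0.0439 at most.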
